A study of Homo sapiens with 56 samples.

Results

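CAOV3 is an established human cell line derived from an ovarian adenocarcinoma and is used as a model of epithelial ovarian cancer. Its 2 expression arrays were set against 51 arrays of 27 other ovarian cancer cell lines, out of 56 arrays in the whole series, to ask which genes of CAOV3 lay beyond every other line and which lineage its genes mark. CAOV3 was grown in DMEM with 10% fetal bovine serum, as were 9 other lines by their base medium, and the remaining lines grew in RPMI (9 lines), DMEM/F12 (7 lines), a mixture of RPMI and MEGM (1 line) or of MCDB105 and M199 (1 line). Serum was 20% for EFO21 and OVCAR3, 5% for OV17R, OV56 and OV7, 3% for UWB1.289 and 10% for the others. No treatment is labelled. Each line has 2 arrays, which the labels do not tie to separate cultures, so p-values based on arrays may measure technical spread only. HEYC2 replicate 1, OV56 replicate 2 and OVCA420 replicate 1 were left out because their values spread less than on any other array (SD over probe sets of 1.84 to 1.89, against 2.09 to 2.32), so these 3 lines are represented by 1 array each.

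Epithelial cells are held together by cadherins, claudins and desmosomes and are filled with keratins, whereas mesenchymal cells carry vimentin and N-cadherin. The epithelium of the fallopian tube and most serous ovarian carcinomas keep the transcription factors PAX8 and SOX17 of the Müllerian duct, and cell lines from such tumours can hold these programmes to different degrees. Many genes that one cell line expresses and others lack belong to differentiation programmes of other tissues, and a gene at the level of unexpressed genes in 1 line only can be a feature of that line.

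All values are log2 intensities after robust multi-array averaging (RMA), so 1 unit is a doubling of signal, and 18377 genes were measured. The 2 CAOV3 arrays correlated at 0.995 over probe sets and differed by a median of 0.11, and 22 genes differed by 1 unit or more between them. A level of 5.36 served as the background level, and 13434 genes lay above it in CAOV3. It is the level below which 95% of the values of 339 olfactory receptor genes lay, pooled over the arrays used. A gene was called when the mean of CAOV3 differed from the mean of the other 27 lines by at least 1 unit with an adjusted p under 0.05 in limma. That fit used 1 mean per line, so the standard error (SE) holds the spread between lines, and CAOV3, with 1 value, was assumed to vary like the others.

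CAOV3 carried 61 genes called higher, or 0.332% of the genes tested, and 10 called lower, or 0.0544%. The higher genes differed by 2.03-fold to 83.0-fold, and the lower genes fell by 2.02 units (RAPGEF2) to 4.25 units (C4orf46). Both CAOV3 arrays lay above all 51 other arrays for 509 genes (2.77%) and below all of them for 188 genes (1.02%). Nearly all calls were among these, namely 59 of the 61 higher genes and all 10 lower genes, the exceptions being TRPA1 and SNORD114-6. The same count in the 24 other lines with 2 arrays ranged from 112 to 584 genes above (median 307.5) and from 74 to 657 below (median 145). More genes lay above every other array in 2 of these lines than in CAOV3, and more lay below in 7 of them. With all 56 arrays, 391 genes remained above and 86 below. When only the spread between arrays of a line was used, 961 genes were higher (5.23%) and 503 lower (2.74%). A gene that was not called with line means is not shown to be level with the other lines.

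Among the genes called higher, those furthest above every other array included several genes of secreted and surface proteins. SPINK6, an inhibitor of kallikrein-related peptidases best known from skin, read 8.72 and 8.81 on the CAOV3 arrays, against a lowest, median and highest of 3.23, 3.88 and 4.89 on the other arrays. No other line had a mean of SPINK6 above background, and its nearest array lay 3.83 units below CAOV3. The difference was 4.85 ± 0.27 units (SE), or 28.8-fold, with an adjusted p of 1.29e-12. SPINK7, of the same gene family, was below background at 3.33 and 2.95 in CAOV3. KLK5, a peptidase that SPINK6 is known to inhibit, stood at 10.47 and 10.52 in CAOV3, against 5.11, 6.59 and 12.25 (lowest, median and highest) elsewhere, and only PEO1 was higher. The promoter window of SPINK6 (chr5:148202528-148202827, plus strand, GRCh38.p14, RefSeq) is shown for the gene with the widest gap, with CG dinucleotides in capitals.
SPINK6: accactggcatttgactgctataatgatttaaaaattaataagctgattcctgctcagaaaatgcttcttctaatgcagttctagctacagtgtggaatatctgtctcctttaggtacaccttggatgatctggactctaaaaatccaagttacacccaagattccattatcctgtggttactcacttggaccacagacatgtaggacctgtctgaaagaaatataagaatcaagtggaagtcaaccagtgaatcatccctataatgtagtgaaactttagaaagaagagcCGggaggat
It holds 1 CG dinucleotide in 300 bases.

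OLR1, the lectin-like receptor for oxidised low-density lipoprotein, stood at 7.54 and 7.02 in CAOV3, against 3.30, 4.03 and 5.00 in the other arrays (difference 3.27 ± 0.34, adjusted p = 5.88e-07). PON3, a lactonase carried on high-density lipoprotein, read 9.27 and 9.04 in CAOV3, against 3.56, 4.08 and 7.02 elsewhere (4.78 ± 0.81, adjusted p = 0.0014). Both groups were thus separate for each gene, and OVCAR2 was the next line for PON3. PON3 lies between PON1 and PON2 on chromosome 7. PON1 was above every other array at 4.70 and 4.52, which is below background, and its difference of 0.95 ± 0.16 missed the minimum of 1 unit (adjusted p = 0.0017). PON2, which is widely expressed, read 11.39 and 11.37 in CAOV3 within a range of 8.61 to 11.88 elsewhere. The imprinted genes SGCE and PEG10, in the same stretch, were high too but not called (adjusted p = 0.99 and 0.97). SGCE was above every other array (10.42 and 10.27, against 4.06, 8.79 and 10.15), and PEG10 read 11.60 and 11.47, against 5.03, 9.03 and 11.53. PPP1R9A, also in this stretch, was near the median at 6.61 and 6.69, against 4.57, 6.55 and 8.06, with 10 lines higher.

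**Figure D1:**
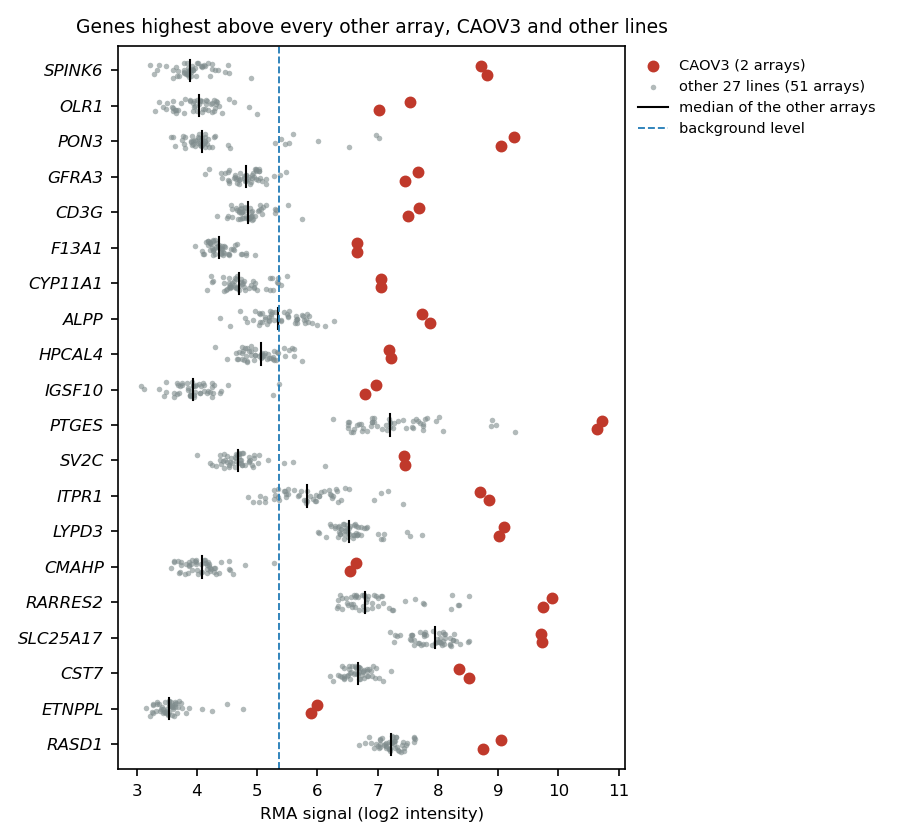
RMA signal (log2 intensity) of the 20 genes called higher with the widest gap between CAOV3 and the nearest other array. Red points are the 2 CAOV3 arrays, grey points the 51 arrays of the other 27 lines, black bars the median of the other arrays and the dashed line the background level of 5.36. Both red points lie to the right of every grey point in each row, by 3.83 units for SPINK6 and 1.12 units for RASD1.

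Several of these genes encode receptors, channels and signalling proteins of nerve or immune cells. GFRA3, the co-receptor for the neurotrophic factor artemin, had 7.66 and 7.46 in CAOV3, against 4.14, 4.82 and 5.48 in the other arrays (2.76 ± 0.24, adjusted p = 1.34e-08). CD3G, the gamma chain of the T cell receptor complex, had 7.68 and 7.51 in CAOV3, against 4.34, 4.85 and 5.74 elsewhere (2.73 ± 0.20, adjusted p = 6.62e-10). The neighbouring CD3D (4.75 and 4.66) and CD3E (4.93 and 4.75) were below background in CAOV3, as was the leukocyte gene PTPRC at a mean of 3.05. HPCAL4 (7.19 and 7.22), a calcium sensor of neurons, and SV2C (7.43 and 7.45), a synaptic vesicle protein, were higher by 2.16 ± 0.27 and 2.74 ± 0.27 units (adjusted p = 1.29e-05 and 2.71e-07). For HPCAL4 the other arrays had 4.29, 5.06 and 5.74 (lowest, median and highest), and for SV2C 4.01, 4.69 and 6.13. ITPR1, the calcium channel of the endoplasmic reticulum opened by inositol trisphosphate, read 8.70 and 8.85 in CAOV3, against 4.84, 5.83 and 7.42 (2.92 ± 0.55, adjusted p = 0.0050). RASD1, a Ras-like protein induced by glucocorticoids, read 9.04 and 8.75, against 6.69, 7.22 and 7.63 (1.68 ± 0.20, adjusted p = 4.91e-06).

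Other genes in this group take part in steroid, prostaglandin and lipid synthesis or mark placenta. CYP11A1, which makes the first cut in cholesterol for steroid hormones, read 7.06 and 7.05 in CAOV3, against 4.17, 4.69 and 5.49 elsewhere (2.29 ± 0.29, adjusted p = 1.56e-05). Of the other genes of the pathway, STAR and CYP17A1 were looked at here. STAR, which brings cholesterol to CYP11A1, read 5.11 and 5.32 in CAOV3, against 4.93, 5.24 and 5.73, and CYP17A1 read 3.99 and 4.27, against 4.02, 4.28 and 4.76. ALPP, placental alkaline phosphatase, had 7.74 and 7.88, against 4.38, 5.35 and 6.27 (2.43 ± 0.31, adjusted p = 2.02e-05). Its near-identical copy ALPG read 8.10 and 7.98, against 6.34, 6.95 and 8.12, so part of the ALPP signal may be shared between the copies, which was not tested. PTGES, the inducible prostaglandin E synthase, was at 10.73 and 10.64, against 6.26, 7.21 and 9.27 (3.37 ± 0.67, adjusted p = 0.0083). CGA, the alpha subunit shared by the pituitary and placental glycoprotein hormones, read 5.28 and 5.30, against 3.73, 4.15 and 4.53. Its difference of 1.12 ± 0.15 was called (adjusted p = 5.43e-05), although the CAOV3 level lay just under background, as did those of SPINK2, KCNJ6 and SNORD114-6 among the 61 genes. The promoter of CGA (chr6:87095057-87095356, minus strand, GRCh38.p14, RefSeq) is known for paired cAMP response elements, and TGACGTCA is in capitals.
CGA: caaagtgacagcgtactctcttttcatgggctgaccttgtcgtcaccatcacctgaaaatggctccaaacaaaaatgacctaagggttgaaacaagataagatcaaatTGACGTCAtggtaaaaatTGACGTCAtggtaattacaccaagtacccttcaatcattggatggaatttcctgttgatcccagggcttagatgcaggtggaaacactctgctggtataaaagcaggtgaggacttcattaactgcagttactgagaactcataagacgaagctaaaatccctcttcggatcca
The palindrome occurs 2 times in this window. It was present in 2 of the 51 genes called higher that have a RefSeq window (CGA and MEG3), in 1 of the 9 called lower (LPP) and in 2.65% of the windows of all measured genes.

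The remaining genes with the widest gaps were F13A1, IGSF10, LYPD3, CMAHP, RARRES2, SLC25A17, CST7 and ETNPPL. F13A1, the catalytic subunit of coagulation factor XIII, had 6.65 on both CAOV3 arrays, against 3.98, 4.36 and 4.96 elsewhere (2.26 ± 0.17, adjusted p = 6.62e-10). RARRES2, which encodes the chemoattractant chemerin, read 9.89 and 9.75, against 6.33, 6.80 and 8.52 (2.88 ± 0.55, adjusted p = 0.0059). LYPD3, a surface protein of stratified epithelia, read 9.10 and 9.02, against 6.02, 6.53 and 7.74 (2.46 ± 0.34, adjusted p = 6.62e-05). No array of another line reached the CAOV3 level for any of the 3. IGSF10, CMAHP, CST7 (cystatin F) and ETNPPL (a lyase of phosphoethanolamine) differed by 2.94, 2.49, 1.76 and 2.35 units (adjusted p = 2.02e-05, 4.81e-06, 1.35e-06 and 2.26e-06). SLC25A17, a carrier of the peroxisomal membrane, is taken up with its neighbours on chromosome 22.

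STEAP4, a metalloreductase of the plasma membrane and endosomes, had the largest fold difference of the calls, chosen here after its value was seen. It read 10.74 and 10.72 in CAOV3, against 2.51, 4.10 and 9.68 in the other arrays, with OV7 next at a mean of 8.33. The difference was 6.37 ± 1.34 units, or 83.0-fold (adjusted p = 0.014). Its relative STEAP2 also lay above every other array (9.14 and 9.02, against 4.89, 6.88 and 8.27) without being called (adjusted p = 0.42), and STEAP1 did not (5.52 and 5.42, against 3.76, 5.03 and 7.85). FBP1, which catalyses a committed step of gluconeogenesis, read 9.85 and 9.49, against 4.80, 5.31 and 8.93 (4.09 ± 0.84, adjusted p = 0.011). LPL, lipoprotein lipase, read 7.73 and 8.16, against 4.37, 4.80 and 7.46 (2.94 ± 0.58, adjusted p = 0.0074). For FBP1 and LPL, PEO1 was the line nearest to CAOV3. Of the NR4A nuclear receptors, NR4A2 (8.41 and 8.43, against 4.78, 5.41 and 8.09) and NR4A3 (6.17 and 6.24, against 4.80, 5.11 and 5.68) were called at 2.95 ± 0.54 and 1.07 ± 0.17 units (adjusted p = 0.0032 and 8.08e-04). NR4A1 read 6.85 and 7.23, within the range of 6.18 to 7.28 elsewhere (0.35 ± 0.29, adjusted p = 1.00).

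Over the 61 higher genes, the mean of the other lines was below background for 36, and for 15 no other line had a mean above it. The next line after CAOV3 varied from gene to gene. OVCAR2 was next for 6 of the 61 and PEO1 for 5, and 24 of the 27 other lines were next for at least 1. Promoter windows were found for 51 of the 61 genes, and they held a median of 21 CG dinucleotides (range 0 to 42), against 23 over all measured genes. Windows with 5 or fewer made up 19.6% of the 51 and 18.4% of all, so the higher genes held about as many CG-poor windows as the rest.

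All 10 genes called lower in CAOV3 were above background in every other line. GLB1, the lysosomal beta-galactosidase, read 5.94 and 5.53 in CAOV3, against 8.35, 9.25 and 10.90 in the other arrays (lowest, median and highest). It fell by 3.53 ± 0.52 units, an 11.6-fold difference (adjusted p = 1.80e-04), and the nearest other array was 2.41 units higher. TMPPE, which overlaps GLB1 in RefSeq so that their signals may not be separate, also lay below every other array (5.51 and 5.20, against 6.21, 6.79 and 8.36), with a difference of -1.44 ± 0.38 that missed the threshold (adjusted p = 0.11). The other 5 measured genes from CNOT10 to SUSD5 were within the range of the other lines, among them TRIM71 and CCR4 on the side of GLB1 (-0.06 and -0.10 units) and CRTAP and SUSD5 on that of TMPPE (0.15 and -0.01 units). The GLB1 window (chr3:33096773-33097072, minus strand, GRCh38.p14, RefSeq) is shown with CG dinucleotides in capitals.
GLB1: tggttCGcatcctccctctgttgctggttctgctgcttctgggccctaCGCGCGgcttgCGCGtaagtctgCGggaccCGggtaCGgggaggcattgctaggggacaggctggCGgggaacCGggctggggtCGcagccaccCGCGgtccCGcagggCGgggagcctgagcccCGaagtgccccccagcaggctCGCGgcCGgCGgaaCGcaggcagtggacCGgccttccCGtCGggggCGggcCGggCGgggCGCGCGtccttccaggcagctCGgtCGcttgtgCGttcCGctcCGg
It holds 36 CG dinucleotides, against 1 in the SPINK6 window. The 9 lower genes with a window had a median of 30 (range 7 to 40).

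GUF1 and GNPDA2, neighbours on chromosome 4, were low together. GUF1, a GTPase of mitochondrial translation, read 4.83 and 5.07 in CAOV3, against 7.22, 8.12 and 9.21 elsewhere, and fell by 3.27 ± 0.47 units (adjusted p = 1.11e-04). GNPDA2, a glucosamine-6-phosphate deaminase, read 3.67 and 4.09, against 4.11, 6.91 and 8.11. Its difference of -2.83 ± 0.85 missed the threshold (adjusted p = 0.22). The genes on either side, YIPF7 and GABRG1, were below background in all lines. IGF2BP2, an RNA-binding protein that takes its name from IGF2 mRNA, read 5.29 and 5.24, against 7.47, 8.81 and 11.27, and fell by 3.48 ± 0.67 units (adjusted p = 0.0059). Its paralogue IGF2BP3 was also below every other array (5.11 and 5.58, against 6.07, 9.07 and 10.67, adjusted p = 0.12), whereas IGF2BP1 (5.76 and 5.94) was within the range of 4.89 to 9.78.

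EP300, a histone acetyltransferase and transcriptional co-activator, read 5.37 and 5.06 in CAOV3, against 6.46, 7.42 and 8.16 in the other arrays (-2.22 ± 0.46, adjusted p = 0.013). Its close relative CREBBP was within range at 7.73 and 7.65, against 7.32, 8.11 and 9.20. NEK6, a mitotic kinase, had 6.50 and 6.41, against 7.63, 8.67 and 9.63 (-2.25 ± 0.52, adjusted p = 0.040). NEK6 kept a level above background in CAOV3, as did GLB1, RAPGEF2, LPP and CCDC50, while C4orf46, PPID, GUF1, IGF2BP2 and EP300 did not. The call of NEK6 was lost without HEYC2, JHOS2, OV17R or SKOV3 and within the DMEM lines (adjusted p of 0.017 to 0.12 over all alternatives), and that of EP300 was lost within the DMEM lines (adjusted p = 0.24).

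**Figure D2:**
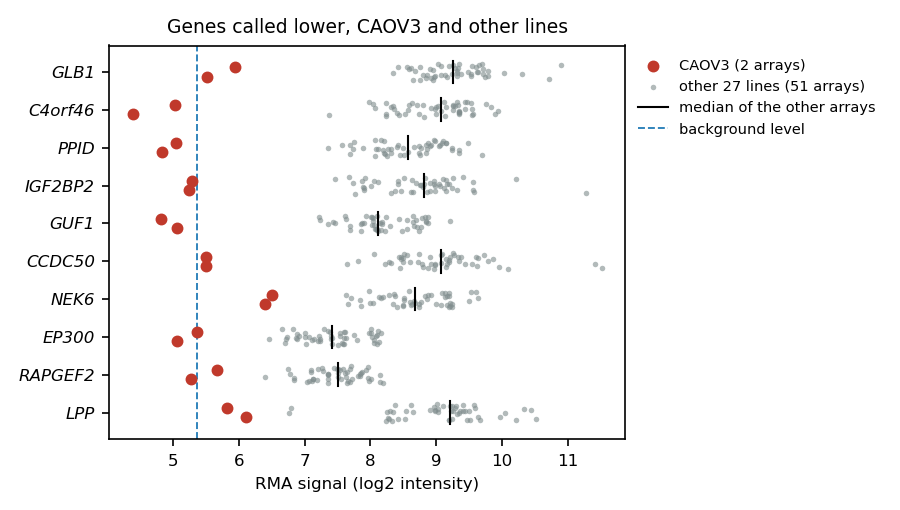
RMA signal (log2 intensity) of the 10 genes called lower. Red points are the 2 CAOV3 arrays, grey points the 51 arrays of the other 27 lines, black bars the median of the other arrays and the dashed line the background level of 5.36. Both red points lie to the left of every grey point in each row, by 2.41 units for GLB1 and 0.65 units for LPP.

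A run of neighbours on chromosome 4 was low in CAOV3. From CTSO to NAF1, all 15 measured genes had a lower mean in CAOV3, with a median difference of -1.69 units, against -0.04 over all genes. Of the 15 genes, 6 lay below every other array (PDGFC, C4orf46, ETFDH, PPID, FNIP2 and RAPGEF2), against 1.02% of all genes. Background was exceeded by 10 of the 15 in at least 14 other lines and by 2 in CAOV3. The ends of this run were set by hand after the differences were seen. C4orf46 read 5.03 and 4.39, against 7.38, 9.08 and 9.93 elsewhere, and fell by 4.25 ± 0.56 units (adjusted p = 2.50e-05). The size of its fall depended on the processing, with differences from -4.56 to -2.90 units over the 36 alternatives, all of which kept the call. PPID, the co-chaperone cyclophilin 40, read 5.04 and 4.84, against 7.36, 8.56 and 9.70, and fell by 3.63 ± 0.54 units (adjusted p = 1.80e-04). RAPGEF2, an exchange factor for the small GTPase Rap1, read 5.67 and 5.28, against 6.40, 7.51 and 8.18, and fell by 2.02 ± 0.39 units (adjusted p = 0.0061). No array of another line was as low for any of these 3 genes. The call of RAPGEF2 was lost within the DMEM lines (adjusted p = 0.10). PDGFC, a growth factor for PDGF receptors, read 4.85 and 4.41, against 6.13, 8.96 and 10.47, but the wide spread between lines left its difference of -4.17 ± 1.16 short of the threshold (adjusted p = 0.15). ETFDH, which passes electrons from fatty acid oxidation to ubiquinone, read 4.89 and 4.24, against 5.76, 7.54 and 8.81 (-2.83 ± 0.69, adjusted p = 0.060). RefSeq places the start of ETFDH inside the C4orf46 window (chr4:158672007-158672306, minus strand, GRCh38.p14), which is shown with CG dinucleotides in capitals because both genes at it were low.
C4orf46: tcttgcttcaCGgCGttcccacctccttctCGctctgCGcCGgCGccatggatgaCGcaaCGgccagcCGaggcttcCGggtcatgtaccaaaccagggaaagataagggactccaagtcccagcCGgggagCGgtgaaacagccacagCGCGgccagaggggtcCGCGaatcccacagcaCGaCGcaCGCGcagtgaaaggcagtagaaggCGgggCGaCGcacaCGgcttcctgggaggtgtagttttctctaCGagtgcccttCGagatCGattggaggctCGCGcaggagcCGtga
It holds 30 CG dinucleotides.

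A second run lay on chromosome 3, from LPP to MB21D2. From BCL6 to PLAAT1, ends that were also set by hand, 16 of 17 measured genes had a lower mean in CAOV3 (median -0.65). Of the 17, 5 lay below every other array (1.02% over all genes). Background was exceeded by 10 of the 17 in at least 14 other lines and by 4 in CAOV3. LPP, a LIM protein of focal adhesions, read 5.82 and 6.11, against 6.76, 9.21 and 10.51 (-3.14 ± 0.74, adjusted p = 0.048). CCDC50, a ubiquitin-binding protein, read 5.51 and 5.50, against 7.65, 9.06 and 11.51 (-3.57 ± 0.71, adjusted p = 0.0081). CLDN1, the tight junction protein claudin-1, had the largest difference of the run. It read 4.52 and 4.79 in CAOV3, against 6.47, 10.42 and 13.21, 1.68 units under the lowest other array, yet its difference of -5.58 ± 1.72 was not called (adjusted p = 0.25). IL1RAP, the accessory chain of the interleukin-1 receptor (4.08 and 4.64, against 5.13, 7.42 and 9.39), and MB21D2 (5.05 and 5.15, against 5.86, 8.91 and 11.37) were also below every other array and not called (adjusted p = 0.33 and 0.24). The outer genes BCL6 and PLAAT1 differed by -0.20 and 0.38 units. The call of LPP was marginal and was lost in 20 of 36 alternatives.

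**Figure D3:**
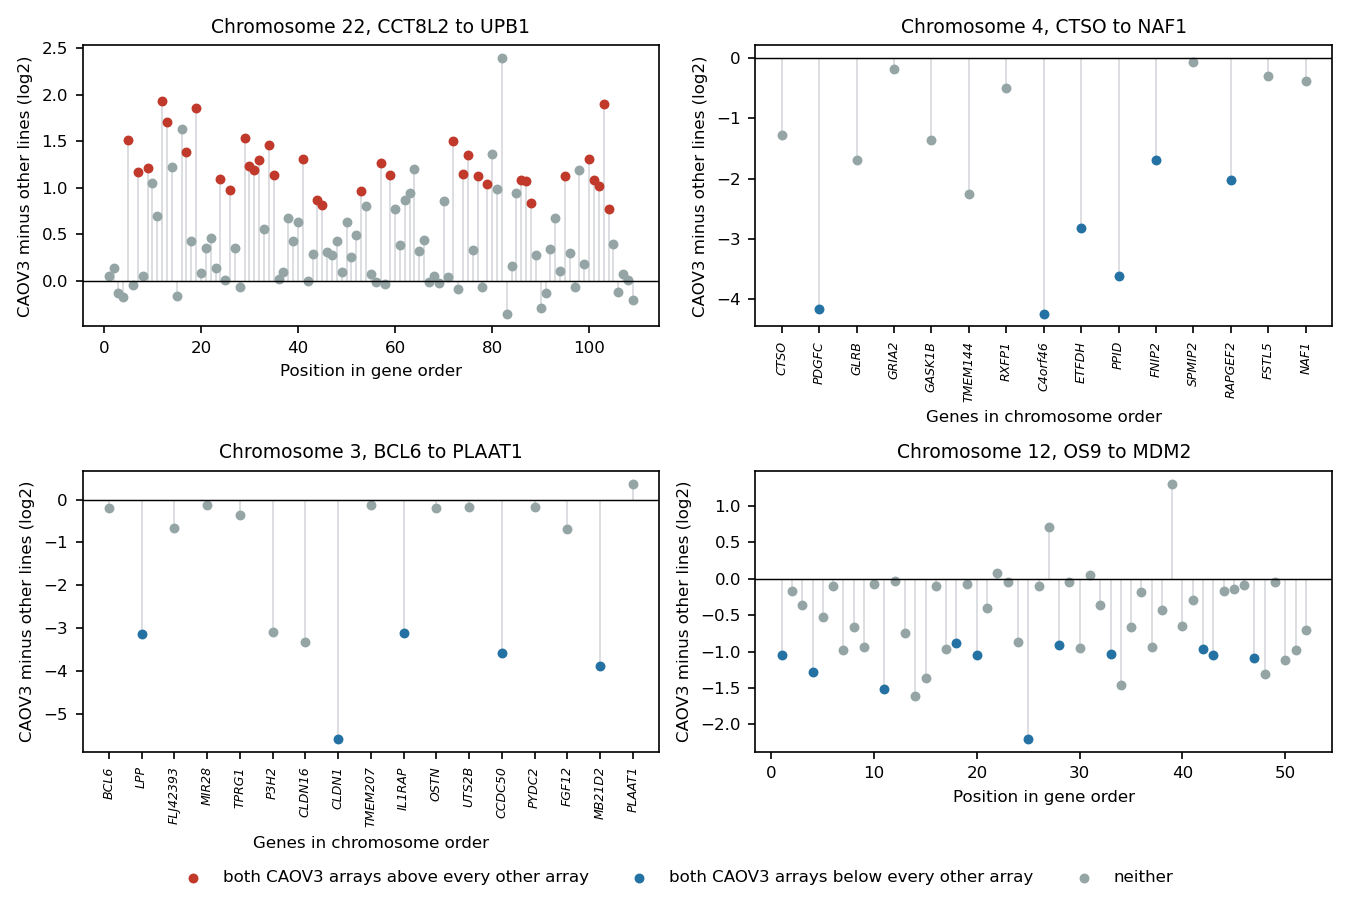
Difference of CAOV3 from the mean of the other 27 lines (log2 units) for measured genes in chromosome order, in runs on chromosomes 22, 4, 3 and 12. Red points are genes with both CAOV3 arrays above every other array, blue points genes with both below, and grey points the rest. The runs on chromosomes 4 and 3 drop by up to 4.25 and 5.58 units at C4orf46 and CLDN1, the chromosome 12 run is shallower with a median of -0.66, and the chromosome 22 run has 35 red points and no blue point.

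On chromosome 22 the pattern went the other way. Of 420 measured genes on it, 69 lay above every other array (16.4%, against 2.77% over all genes) and 1 below, and their median difference was 0.25 units. From CCT8L2 to UPB1, at the start of the chromosome, 35 of 109 genes were above every other array and 91 had a higher mean in CAOV3 (median 0.56). The ends of this run too were set by hand. ATP6V1E1, a subunit of the vacuolar proton pump, read 11.11 and 11.05, against 7.83, 9.05 and 10.08 (1.94 ± 0.43, adjusted p = 0.029). BCL2L13, a mitochondrial BCL2-like protein, read 9.90 and 9.87, against 7.49, 8.07 and 9.03 (1.71 ± 0.35, adjusted p = 0.011). These were the only calls of the run, and neither was called within the DMEM lines (adjusted p = 0.20 for ATP6V1E1 and 0.086 for BCL2L13). ATP6V1E1 also lost its call with all 56 arrays (adjusted p = 0.12). UFD1, a partner of the segregase VCP, read 11.03 and 11.04, against 8.36, 9.60 and 10.32 (1.46 ± 0.41, adjusted p = 0.15), and SMARCB1, a subunit of the SWI/SNF chromatin remodeller, 10.12 and 10.03, against 7.83, 8.76 and 9.43 (1.31 ± 0.37, adjusted p = 0.17). Both were above every other array and not called.

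Further along chromosome 22 lay EP300, whose nearest neighbours ranged from high to level with the other lines. SLC25A17, before it, read 9.71 and 9.72, against 7.21, 7.95 and 8.52 (1.83 ± 0.34, adjusted p = 0.0037), but was not called within the DMEM lines (adjusted p = 0.12). RBX1, the RING subunit of cullin ubiquitin ligases and the gene just before EP300, read 11.44 and 11.37, against 9.12, 10.04 and 10.65 (1.44 ± 0.35, adjusted p = 0.057). L3MBTL2, just after it, read 8.05 and 8.04, against 6.64, 7.45 and 8.06 (0.60 ± 0.33, adjusted p = 0.93). From RBX1 to TEF, 4 of 7 genes had a higher and 3 a lower mean in CAOV3, with CHADL and ZC3H7B at -0.02 and -0.07 units. EP300 was thus the 1 gene of chromosome 22 below every other array.

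**Figure D4:**
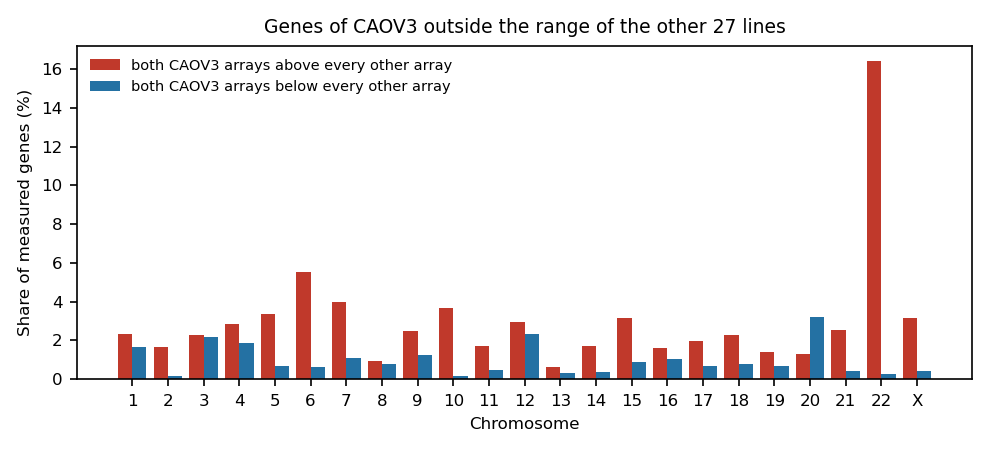
Share (%) of the measured genes of each chromosome for which both CAOV3 arrays lay above (red) or below (blue) all 51 arrays of the other 27 lines. Chromosome 22 has 16.4% above, against 5.53% on chromosome 6, which comes next, and chromosome 20 has 3.18% below.

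Windows of 25 neighbouring genes gave further stretches. On chromosome 12, the window from OS9 to SRGAP1 had the lowest median of all (-0.74), with 24 of 25 genes lower and 6 below every other array. CDK4, the cyclin D kinase, read 9.48 and 9.41, against 9.64, 10.75 and 11.36 (-1.29 ± 0.38, adjusted p = 0.19), and CTDSP2, a small phosphatase, 8.19 and 7.95, against 8.84, 9.61 and 10.61 (-1.52 ± 0.46, adjusted p = 0.23). Up to MDM2, an end that was set by hand, 11 of 52 genes were below every other array (1.02% over all genes). None of the 52 was called (0.0544% over all genes). Background was exceeded by 39 of the 52 in at least 14 other lines and by 38 in CAOV3. The window from MKRN3 to SNORD116-29 on chromosome 15 had the highest median (1.30) with 22 of 25 genes higher, but none lay above every other array. Most of its members are SNORD116 small nucleolar RNAs, a family of similar copies, so signal shared between copies is possible and was not tested. Their levels differed, with SNORD116-10 at 2.69 and 3.36 in CAOV3 and SNORD116-14 at 10.21 and 10.20, against 2.49 to 3.55 and 1.38 to 11.29 in the other arrays. In the MHC region of chromosome 6, from PRR3 to MICB, 9 of 28 genes lay above every other array (2.77% over all genes). The ends of this stretch were set by hand around a window picked for its count of such genes. Among them were DDR1, a collagen receptor kinase (10.04 and 9.98, against 6.55, 8.46 and 9.93), and the stress ligand MICA (8.89 and 8.87, against 5.88, 7.68 and 8.68). None of the 28 was called.

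At the imprinted locus of chromosome 14, MEG3, a maternally expressed non-coding RNA, read 7.16 and 7.12, against 5.22, 5.77 and 6.63 (1.36 ± 0.27, adjusted p = 0.0095). BEGAIN, at the same locus, was called too (6.75 and 6.68, against 5.06, 5.57 and 6.46, 1.15 ± 0.24, adjusted p = 0.014), as was SNORD114-6, whose 2 CAOV3 arrays (4.18 and 3.32) overlapped the others and lay below background. SNORD114-6 lost its call without CAOV3 replicate 1, where the difference was 0.69 (adjusted p = 0.17), and with all 56 arrays (adjusted p = 0.056). DLK1, the paternally expressed protein-coding gene of the locus, was not called (6.55 and 6.81, against 5.92, 6.32 and 7.24). MEG3 lost its call with all 56 arrays (adjusted p = 0.14) and within the DMEM lines (adjusted p = 0.31), and BEGAIN with all 56 arrays (adjusted p = 0.10).

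Among lineage genes, CAOV3 carried epithelial junction genes and simple keratins and had low levels of VIM, CDH2 and PAX8. VIM, CDH2 and PAX8 were within the range of the other arrays, although the PAX8 mean was the lowest of all lines. EPCAM read 11.21 and 11.33, against 3.75, 9.36 and 14.89 in the other arrays, and the tight junction gene CLDN7 read 11.16 and 11.05, against 4.79, 7.76 and 11.30, with only PEO1 higher. CDH1, which encodes E-cadherin, read 9.28 and 9.10, against 3.75, 7.18 and 11.84, and 6 lines were higher. Keratins of simple epithelium were within the range of the other lines, with KRT7 at 11.56 and 11.51, against 5.89, 9.64 and 13.36, and KRT8 at 11.84 and 11.69, against 8.93, 12.38 and 13.75. Of the 6 keratins listed, 3 had a higher and 3 a lower mean in CAOV3 (median 0.06), and KRT23 was below background. VIM, the mesenchymal filament vimentin, stood below background at 5.26 and 5.33, against 4.47, 10.99 and 13.34, and 25 of the 27 lines were higher. CDH2, which encodes N-cadherin, read 5.87 and 5.49, against 5.06, 9.68 and 11.70, again with 25 lines higher. All 8 measured transcription factors of the epithelial to mesenchymal transition had a lower mean than in the other lines (median -0.47), and none was called. No gene of these lists was called (adjusted p of 0.91 for VIM, 0.96 for CDH2 and CLDN7). Of the 18 measured junction genes (median 0.32), only CLDN1 lay beyond every other array, on the low side.

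Among the Müllerian transcription factors, PAX8, SOX17 and MECOM had their lowest mean in CAOV3, without a call. PAX8 read 6.42 and 6.15 in CAOV3, against 6.07, 9.23 and 10.97 in the other arrays, and its mean was the lowest of the 28 lines, followed by OVCAR2 at 6.44. SOX17 read 7.04 and 6.82, against 6.85, 8.17 and 10.29, also the lowest mean. MECOM, a zinc finger transcription factor, lay below every other array at 5.01 and 4.84, against 5.18, 8.83 and 11.21. WT1 (5.78 and 6.17, against 5.62, 6.34 and 9.83) and EMX2 (4.87 and 5.00, against 4.63, 5.14 and 8.54) were in the lower part of the range, where many lines lay. Of the 10 measured members of this list, 9 had a lower mean and none was called (median -0.74, against -0.04 over all genes). The differences of PAX8, SOX17 and MECOM were -2.52 ± 1.51, -1.36 ± 1.03 and -3.57 ± 1.60 (adjusted p = 0.97, 1.00 and 0.73). The summed level of the list (log2 of the summed signal) was 9.41 in CAOV3, below the 9.57 to 12.89 of the other lines. CDH6, a cadherin of kidney and Müllerian epithelium, was also at the low end in CAOV3, at 4.23 and 4.42, against 4.18, 9.87 and 12.97.

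**Figure D5:**
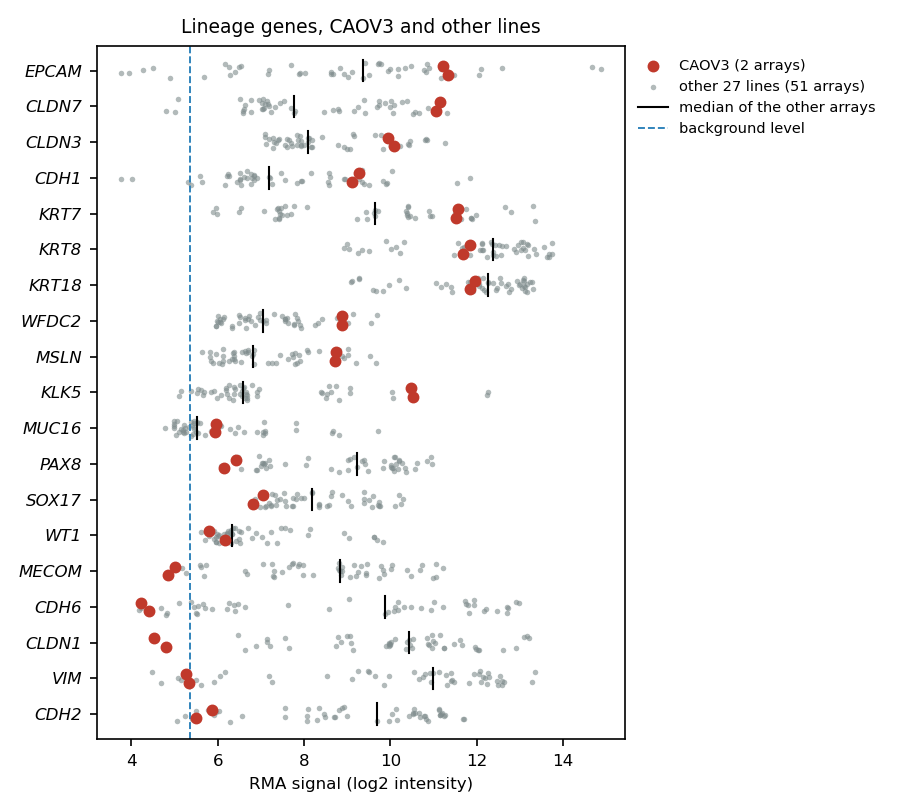
RMA signal (log2 intensity) of lineage genes, from epithelial genes and serous carcinoma products at the top to Müllerian factors and mesenchymal genes at the bottom. Red points are the 2 CAOV3 arrays, grey points the 51 arrays of the other 27 lines, black bars the median of the other arrays and the dashed line the background level of 5.36. CAOV3 sits above the median of the other arrays for EPCAM, CLDN7 and KLK5, and at the low end for PAX8 (6.42 and 6.15), CDH6 (4.23 and 4.42) and VIM (5.26 and 5.33).

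Surface and secreted products of serous carcinoma were present to different degrees. WFDC2, which encodes the serum marker HE4, read 8.88 and 8.89, against 5.95, 7.06 and 9.68, and MSLN, mesothelin, 8.74 and 8.72, against 5.62, 6.83 and 9.66. MUC16, the CA125 antigen, was just above background at 5.96 and 5.94, against 4.79, 5.51 and 9.72. Over the 20 genes of this list the median difference was 0.73, 12 were higher and 8 lower in CAOV3, and none was called or beyond every other array.

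Markers of other lineages held few calls. None of the lists for ciliated, mesothelial, clear cell, gastrointestinal, germ cell, breast and urothelial, squamous, liver and lung, neural, fibroblast, endothelial and leukocyte genes had a member called or beyond every other array. Over all genes, 0.332% were called higher and 0.0544% lower, and 2.77% lay above and 1.02% below every other array. Lists of 7 to 15 measured genes would thus seldom hold a call, and its absence does not show that a lineage is absent. The median differences of these lists ran from -0.82 for clear cell carcinoma genes to 0.11 for breast and urothelial genes. CYP11A1 was the 1 call in all of the lineage lists, and the other 11 granulosa and sex cord genes were not called. CD14, a monocyte co-receptor for lipopolysaccharide, had the highest mean of all lines at 7.90 and 7.89, against 5.29, 5.91 and 7.92, while CD3E, PTPRC, CD4, ITGAM and LYZ were below background in CAOV3. The summed level of the 7 measured leukocyte genes, 9.13 in CAOV3, lay within 8.02 to 10.89 of the other lines.

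Of the 19 measured cell cycle and tumour suppressor genes, 7 had a higher and 12 a lower mean in CAOV3, and none was called. The 3 beyond every other array, CDK4, CDK6 and STK11, were below it, against 1.02% below over all genes. CDK6, the other cyclin D kinase, lay below every other array at 4.65 and 4.95, against 5.42, 8.84 and 9.89, as did CDK4 above. RB1, the retinoblastoma gene that they act on, was below background at 5.05 and 4.48, against 4.29, 8.59 and 9.84, and only OVCA432 was lower. CCND1, cyclin D1, read 8.44 and 8.31, against 6.62, 10.49 and 11.51, with 1 line lower. STK11, which encodes the kinase LKB1, lay below every other array at 6.99 and 6.91, against 7.56, 8.29 and 8.94 (-1.36 ± 0.36, adjusted p = 0.10). Its neighbours leaned low too. From SBNO2 to DAZAP1 on chromosome 19, ends that were set by hand, 12 of 13 genes, STK11 among them, had a lower mean in CAOV3. The 3 below every other array (1.02% over all genes) were STK11 and the end genes SBNO2 and DAZAP1. That count thus follows from the choice of ends. The difference was -3.65 ± 1.28 for CDK6 (adjusted p = 0.42) and -3.69 ± 1.22 for RB1 (adjusted p = 0.34), and the list had a median of -0.14, against -0.04 over all genes. Its summed level was 12.06 in CAOV3, below the 12.70 to 13.69 of the other lines.

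Interferon-stimulated and antigen presentation genes leaned high. Of 19 measured interferon-stimulated genes, 18 had a higher mean in CAOV3 (median 0.64), with IFITM1 at 10.85 and 10.83, against 4.69, 7.87 and 12.14, and MX2 as the exception at 4.29 on both arrays. Over all genes, 8164 of 18377 had a higher mean, with a median difference of -0.04. IRF7, a transcription factor of this response, lay above every other array at 7.50 and 7.61, against 6.73, 7.07 and 7.44 (0.48 ± 0.16, adjusted p = 0.39). Of 9 measured antigen presentation genes, 7 had a higher mean (median 0.96), and B2M, the light chain of MHC class I, had the highest mean of the lines at 11.40 and 11.39, against 8.53, 10.41 and 11.59, with EFO21 next at 11.38. No member of either list was called, against 0.332% called higher over all genes. Of the 18 measured cytokine and chemokine genes, 13 had a lower and 5 a higher mean in CAOV3 (median -0.73), 9 were above background there and none was called. CXCL1, a neutrophil attractant, lay below every other array (5.25 and 6.04, against 6.64, 9.29 and 11.31, adjusted p = 0.54). DKK1, a secreted inhibitor of WNT signalling, was above every other array at 12.27 and 12.26, against 3.34, 8.56 and 12.06, again without a call (adjusted p = 1.00).

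Over all genes centred on their mean over lines, CAOV3 correlated at 0.15 with PEO1, 0.07 with JHOS3 and 0.07 with COLO720E, and at -0.21 with HEYC2 and -0.20 with HEY. These values are across genes, which are not independent replicates, and the centring itself moves them slightly below 0. Within the 10 DMEM lines alone, 66 genes were called higher and 8 lower, including 43 of the 61 and 7 of the 10 above. Leaving out each other line in turn kept 57 of the 61 higher and 8 of the 10 lower genes, and 35 and 6 were called under every alternative of this fit.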

How the data were processed

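Affymetrix Human Gene ST arrays, 2 for each of 28 ovarian cancer lines (JHSO4 was read as JHOS4), measured RNA. The authors deposited log2 intensities, which the submitters' notes say came from RMA in affy 1.42.3; which arrays were normalized together is not given in the sources used here. A single gene was assigned to 19310 of 28869 probe sets (19279 by gene ID), giving 18377 genes. Where a gene had more than 1 probe set (685 genes), the brightest on average stood for it. Probe sets with several genes (1752) or none listed (7807) were not used in gene comparisons.

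Line means were compared with limma 3.58.1 (statmod 1.5.0, R 4.3.3; trend and robust, Benjamini-Hochberg over all genes), checked on simulated data. A second fit used arrays. Tables and plots were made in Python 3.11.15 with pandas 2.3.3, numpy 2.4.6 and matplotlib 3.10.9. The number of arrays limits the precision. Depth does not apply. Genes were ordered by RefSeq (GRCh38.p14; GSTT1, placed on another scaffold, was left out), and promoters span 250 bases before to 50 after the start, the first listed per gene.

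Named were the 20 higher and up to 15 lower calls with the widest gaps, list members called, beyond every other array or among the first 4, and called neighbours. Other genes were named after their values were seen. Members and lists were chosen with earlier results of these data known. Alternatives were all 56 arrays, each CAOV3 array or other line left out, DMEM lines, HEY and HEYC2 averaged, mean over probe sets, further quantile normalization, a filter on low values, limma without trend and robust, no minimum difference and a replicate block. Same-numbered arrays of CAOV3 and 24 other lines deviated with a median correlation of 0.03.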

Additional observations from a re-analysis of the deposited data

Results flagged for a closer look

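Among 9559 probe sets that carry several genes or none listed, 86 (0.9%) had both CAOV3 arrays above every other array and 27 (0.282%) below. Only 1 exceeded the other arrays by 2 units or more. Probe set 8017843, with no gene listed, read 11.16 and 11.10 in CAOV3, against 3.71, 5.66 and 8.16 in the other arrays (lowest, median and highest), a gap of 2.94 units. It was singled out because a signal above every other line appeared in data that the comparisons do not use, and its gene is not named here. Lines have at most 2 arrays, so no line could be searched for an outlying array.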

How the results depend on the processing

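The counts of calls, 61 higher and 10 lower, stayed within 47 to 77 higher and 8 to 12 lower under all alternatives of the line-mean fit. Without CAOV3 replicate 1 or 2 they were 70 and 72 higher and 12 and 10 lower, and without each other line 57 to 72 and 8 to 12. In the array-level fit, the replicate block gave 960 higher and 503 lower genes, leaving out a CAOV3 array 901 to 1030 and 479 to 535, and the numbers shared by CAOV3 and the other lines do not pair samples (correlations of deviations from -0.14 to 0.16, over 0.1 in 3 of 24 lines).

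Counts of genes beyond every other array moved more. With line means in place of arrays they were 816 above and 657 below, with all 56 arrays 86 below, and against the DMEM lines only 1341 above and 676 below, where fewer arrays had to be exceeded. Without CAOV3 replicate 1 or 2, they were 606 to 688 above and 394 to 395 below, since 1 array then had to lie outside, and without each other line 510 to 563 above and 188 to 211 below.

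Of 2552 single-gene comparisons under 36 alternatives, 2418 kept their call, 134 did not and 0 reversed. SLF1, CHRNA9, TRPA1 and RARRES1 among the higher and LPP and NEK6 among the lower genes lost it on leaving out at least 1 other line, with adjusted p up to 0.14, 0.32, 0.082, 0.14, 0.064 and 0.12 over all alternatives. The cause was not tested.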
